A study of Mus musculus with 12 samples.

Results

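The collagen genes of the mouse kidney were followed across injury and genotype. A gene was taken as a collagen gene if its symbol in the deposited table had the form of a collagen chain name (Col, a type number, a, a chain number), which gave 44 of 18803 genes. They fall into 9 classes: 11 genes of fibrillar collagens, 6 of basement membrane collagen, 6 of beaded filament collagen, 9 of FACIT collagens (fibril-associated collagens with interrupted triple helices), 2 of multiplexins, 4 of transmembrane collagens, 3 of hexagonal network collagens, 1 of anchoring fibrils and 2 of other types.

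RNA sequencing was run on total RNA of kidney tissue from male mice, 8 weeks old, of the C57BL/6J background, in a study of how an acute kidney injury turns into chronic kidney disease and of the part that Wwp2, a ubiquitin ligase, plays in it. The mice called WT carried the floxed Wwp2 allele (Wwp2 fl/fl), and those called PTCKO had a conditional knockout of Wwp2 in the proximal tubule. Each genotype was given either sham surgery or the injury labelled UIR, and each of the 4 resulting groups had 3 libraries. The sources used here give neither the Cre driver nor the time between injury and harvest.

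Collagens are proteins of 3 chains wound into a triple helix, and each gene codes for one chain. Fibrillar collagens are secreted as procollagens, trimmed outside the cell, and packed into the cross-linked fibrils that give a scar its strength; FACIT and beaded filament collagens attach to these fibrils or link them to cells. Type IV collagen forms the mesh of basement membranes, with one set of chains found in nearly all of them and another set enriched in the filter of the glomerulus. In the kidney, interstitial fibroblasts and pericytes are known as main sources of fibrillar collagen, and deposits of it mark fibrosis.

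The libraries held between 15495163 and 19645743 expected counts (reads assigned to genes by RSEM, which splits reads shared between genes). Levels are given as FPKM, fragments scaled by transcript length and by library size, and differences as log2 fold changes from edgeR's quasi-likelihood test, with Benjamini-Hochberg adjustment over 15322 genes that passed a filter on low counts; an adjusted p below 0.05 made a call. The test rescales libraries by TMM factors, whose means were 0.773 in WT sham, 1.27 in WT UIR, 0.846 in PTCKO sham and 1.21 in PTCKO UIR, so a ratio of FPKM between UIR and sham is larger than the tested fold. Without this scaling the median log2 change over all genes from sham to UIR was 0.82 in WT and 0.57 in PTCKO, against 0.10 and 0.059 with it.

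Sham libraries held Wwp2 itself at 15.2, 15.7 and 17.1 FPKM for WT and 15.6, 16.1 and 17.6 for PTCKO, and UIR libraries at 17.6, 19.1 and 17.9 for WT and 22.3, 19.3 and 20.5 for PTCKO. Within each genotype its FPKM was higher in every UIR library than in every sham library. With TMM scaling Wwp2 was instead lower after UIR, with log2 changes of -0.56 in WT and -0.28 in PTCKO (edgeR adjusted p = 9.74e-06 and 0.00352). Libraries labelled PTCKO did not hold less of it (log2 difference -0.029 after sham, adjusted p = 0.823, and 0.25 ± 0.073 SE after UIR, adjusted p = 0.037, edgeR), so every genotype difference here rests on the labels; the sources used here do not say which exon was deleted. The labelled tissue held its defining transcripts, with the proximal tubule gene Slc34a1 between 3401 and 4792 FPKM in the sham libraries. No label ties the libraries to separate mice, so p-values measure the spread between libraries, and in whole tissue fewer cells of a type and less RNA per cell cannot be told apart.

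Promoters, from 250 bases before to 50 bases after the annotated start in the RefSeq annotation of GRCm38.p6, were found for 35 of the 44 genes. Shown are the promoters of Col4a1 and Col4a2, which face away from each other and whose transcripts moved by close amounts, of Col4a4, a type IV chain that went the other way, and of Col1a2 and Col3a1, chains of the scar collagens that rose. Capitals mark each match, on either strand, of CCAAT (the CCAAT box), TATAAA (the TATA box) or GGGCGG (the GC box bound by Sp1), with overlapping matches counted separately.
Col4a1, minus strand, chr8:11312777-11313076: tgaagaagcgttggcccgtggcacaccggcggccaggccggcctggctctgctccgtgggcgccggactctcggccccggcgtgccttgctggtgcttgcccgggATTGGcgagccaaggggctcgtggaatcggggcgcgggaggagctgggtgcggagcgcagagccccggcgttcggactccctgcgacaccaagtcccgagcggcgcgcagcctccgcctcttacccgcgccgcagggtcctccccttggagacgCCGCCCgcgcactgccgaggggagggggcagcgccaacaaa
Col4a2, plus strand, chr8:11312555-11312854: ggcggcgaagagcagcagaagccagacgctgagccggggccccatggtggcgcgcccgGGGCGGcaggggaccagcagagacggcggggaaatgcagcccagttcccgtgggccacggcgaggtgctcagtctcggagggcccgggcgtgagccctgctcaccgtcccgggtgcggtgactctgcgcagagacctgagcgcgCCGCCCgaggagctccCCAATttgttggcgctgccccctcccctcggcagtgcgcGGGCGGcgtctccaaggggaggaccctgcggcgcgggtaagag
Col4a4, minus strand, chr1:82586800-82587099: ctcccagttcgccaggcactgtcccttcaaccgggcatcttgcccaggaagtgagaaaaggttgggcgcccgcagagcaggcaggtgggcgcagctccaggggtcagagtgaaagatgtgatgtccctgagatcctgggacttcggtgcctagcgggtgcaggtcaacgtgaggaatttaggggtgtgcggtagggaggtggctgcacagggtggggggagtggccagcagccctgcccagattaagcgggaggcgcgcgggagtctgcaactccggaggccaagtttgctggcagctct
Col1a2, plus strand, chr6:4505368-4505667: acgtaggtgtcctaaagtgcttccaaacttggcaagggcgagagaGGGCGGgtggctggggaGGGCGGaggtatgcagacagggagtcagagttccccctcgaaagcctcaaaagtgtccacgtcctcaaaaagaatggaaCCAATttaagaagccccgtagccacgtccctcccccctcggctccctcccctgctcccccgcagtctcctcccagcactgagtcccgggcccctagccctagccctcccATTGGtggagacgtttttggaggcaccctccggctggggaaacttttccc
Col3a1, plus strand, chr1:45311288-45311587: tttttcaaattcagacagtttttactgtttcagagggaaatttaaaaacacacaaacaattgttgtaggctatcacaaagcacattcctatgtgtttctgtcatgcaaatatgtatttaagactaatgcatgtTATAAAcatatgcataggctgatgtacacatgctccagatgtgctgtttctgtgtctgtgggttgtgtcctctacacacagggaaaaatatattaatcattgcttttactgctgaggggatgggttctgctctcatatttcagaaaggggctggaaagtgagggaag
The annotated starts of Col4a1 and Col4a2 lie 21 bases apart on opposite strands, so that their windows share 78 bases. The genes overlap by 85 bases, and Col4a3 and Col4a4, another divergent pair, overlap by 114 bases; the sources used here do not say whether counting used strand, so reads within these overlaps cannot be assigned with certainty. The window of Col4a1 held 1 match of CCAAT and 1 of GGGCGG, that of Col4a2 1 of CCAAT and 3 of GGGCGG, and that of Col1a2 2 of each. The window of Col3a1 held TATAAA 117 bases before the start, and that of Col4a4 held none of these motifs. Over the 38 collagen promoters in the annotation, 34.2% held CCAAT, 13.2% TATAAA and 60.5% GGGCGG, and over all 32851 promoters of the same length the shares were 37.4%, 13.6% and 35.7%. A match describes the letters of the window and is not a measured binding site.

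In the sham kidney, basement membrane collagen dominated the collagen transcripts. The 6 type IV genes made up 55.8% ± 2.79 (SD, n = 3) of the summed collagen FPKM in WT sham and 59.6% ± 0.901 in PTCKO sham, while the fibrillar genes made up 16.5% ± 0.899 and 14.1% ± 0.310. The highest mean in WT sham was that of Col18a1, a multiplexin of basement membrane zones whose end piece is endostatin, at 32.3 ± 3.42 FPKM. It was followed by Col4a3 at 30.4 ± 9.68, Col4a1 at 28.1 ± 6.49, Col4a4 at 27.3 ± 5.2 and Col4a2 at 22.3 ± 3.63, and each neighbour in this order overlapped the next in its library range. The next, Col27a1, a fibrillar chain best known from cartilage, lay at 18.6 ± 1.15 FPKM and was the highest fibrillar gene of the WT sham kidney, above Col1a2 at 4.62 ± 1.24. In PTCKO sham the order began with Col4a1 at 35.4 ± 3.13 FPKM, Col4a3 at 32.0 ± 0.283 and Col18a1 at 30.8 ± 3.89.

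After UIR the order was another one. In WT UIR the highest collagen genes were Col3a1 at 244 ± 30.7 FPKM and Col1a2 at 198 ± 24.0, with overlapping library ranges, followed by Col4a1 at 174 ± 5.68, Col18a1 at 165 ± 2.53 and Col1a1 at 155 ± 19.6. In PTCKO UIR they were Col3a1 at 171 ± 10.5 FPKM, Col18a1 at 161 ± 7.66, Col1a2 at 149 ± 9.94, Col4a1 at 141 ± 0.665 and Col1a1 at 118 ± 22.6. The number of members with a mean of at least 100 FPKM was 0 in both sham groups, 6 in WT UIR and 5 in PTCKO UIR. Summed over all 44 genes, collagen FPKM after sham was 199 ± 36.8 for WT and 211 ± 7.55 for PTCKO, and after UIR 1486 ± 118 for WT and 1142 ± 37.7 for PTCKO (mean ± SD, n = 3). The lowest WT UIR library, at 1352, lay above the highest PTCKO UIR library, at 1177. As a share of all expected counts, the collagen genes took 0.136%, 0.143%, 0.835% and 0.650% in the same order. The fibrillar share of collagen FPKM was 43.2% ± 1.76 in WT UIR and 41.6% ± 3.01 in PTCKO UIR, and the type IV share was 22.3% ± 1.62 and 24.0% ± 0.550.

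**Figure D1:**
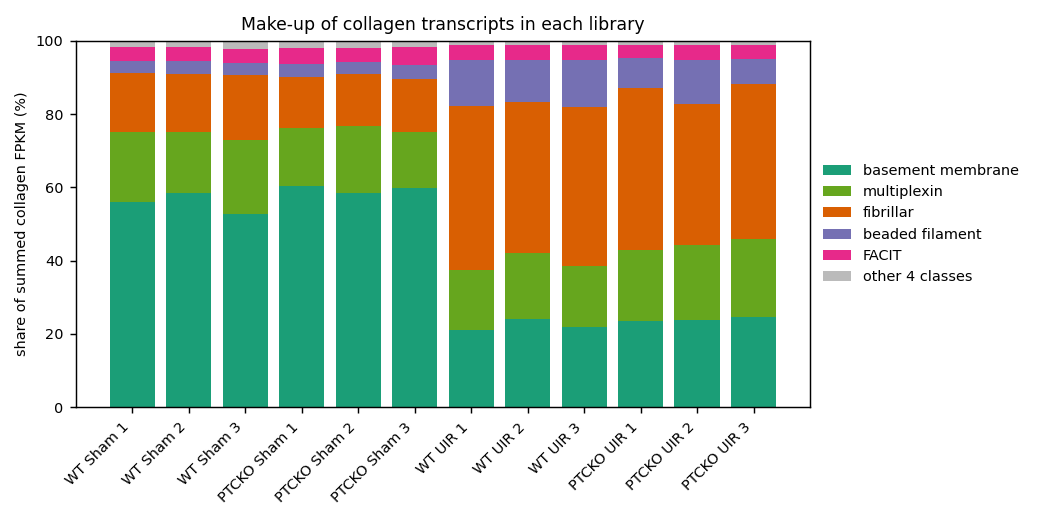
Share of the summed collagen FPKM (percent) taken by each collagen class, as stacked bars, in each of the 12 libraries. In sham libraries type IV genes take 55.8% (WT) and 59.6% (PTCKO) on average; in UIR libraries fibrillar genes take 43.2% (WT) and 41.6% (PTCKO).

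Of the 44 genes, 39 passed the filter on low counts. Members near 0 in sham passed it through the UIR libraries, so the counts that follow describe the tested members and are not evidence about the class as a whole. The other 5 were Col2a1 and Col11a1 (fibrillar chains of cartilage), Col9a1 and Col9a2 (FACIT chains of cartilage) and the transmembrane chain Col25a1. None of them exceeded 0.20 FPKM in a library, and Col9a1 was at 0 in 11 of 12. Col25a1 lay at 0.04, 0.03 and 0.02 FPKM in WT sham, 0.08, 0.01 and 0.02 in WT UIR, 0.04, 0.03 and 0.02 in PTCKO sham and 0.01, 0.05 and 0.04 in PTCKO UIR, with no separation of the groups.

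Comparing UIR with sham shows how far injury changed each chain. In WT, 32 of the 39 tested collagen genes rose and 6 fell, beside 42.1% and 36.4% of all tested genes (78.6% in either direction); in PTCKO, 27 rose and 5 fell, beside 39.0% and 34.8% (73.8% in either direction). The median log2 change of the tested members was 2.02 in WT and 1.80 in PTCKO, against 0.10 and 0.059 over all genes. A change of at least 2-fold upward was found for 30 members in WT and 24 in PTCKO. The same 27 genes rose and the same 5 fell in both genotypes, and 6 were called in WT alone: Col4a5, Col6a4, Col22a1, Col23a1 and Col24a1, which were higher, and Col26a1, which was lower with TMM scaling and had a positive value without it. Of these 6, Col4a5, Col6a4 and Col23a1 were also called higher in PTCKO without scaling factors (edgeR adjusted p = 0.0142, 0.0221 and 0.0161). Col26a1, too, was called higher in PTCKO without them. For these genes the split between genotypes depends on the scaling. Whether such a gene differed between genotypes is a separate test, given further on. Without TMM scaling 78.7% of all calls in WT and 77.2% in PTCKO were upward, against 53.6% and 52.8% with it.

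Most fibrillar collagens rose after UIR. Of the 9 tested fibrillar genes, 8 rose and 1 fell in WT, and 7 rose and 1 fell in PTCKO. Col3a1, the chain of type III collagen that shares fibrils with type I, lay at 2.29, 4.12 and 1.81 FPKM in WT sham and 265, 209 and 258 in WT UIR, and at 3.76, 4.13 and 3.11 in PTCKO sham and 183, 164 and 165 in PTCKO UIR. Every UIR library lay above every sham library by a wide margin. The log2 change was 5.78 ± 0.26 (SE) in WT (edgeR adjusted p = 3.5e-10) and 5.03 ± 0.25 in PTCKO (adjusted p = 1.39e-09).

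The chains of type I collagen, the main collagen of scars, bone and tendon, followed. Col1a1 lay at 2.33, 3.28 and 1.35 FPKM in WT sham, 176, 137 and 154 in WT UIR, 2.83, 2.91 and 2.57 in PTCKO sham and 142, 97.7 and 114 in PTCKO UIR. Col1a2 lay at 4.31, 5.98 and 3.56 FPKM in WT sham, 214, 170.1 and 208 in WT UIR, 5.56, 5.97 and 5.55 in PTCKO sham and 159.6, 139.7 and 149 in PTCKO UIR. For both, sham and UIR libraries did not overlap. Col1a1 rose by 5.36 ± 0.26 on the log2 scale in WT and 4.90 ± 0.26 in PTCKO, and Col1a2 by 4.71 ± 0.17 and 4.20 ± 0.17 (edgeR adjusted p at most 2.16e-09). The 2 chains are built into one molecule, and the ratio of Col1a1 to Col1a2 in FPKM was 0.489 ± 0.0955 in WT sham, 0.788 ± 0.0442 in WT UIR, 0.486 ± 0.0230 in PTCKO sham and 0.787 ± 0.0980 in PTCKO UIR. The UIR ratios, at 0.699 or more, lay above the sham ratios, at 0.548 or less.

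Col5a1, a chain of type V collagen, which starts fibrils and limits their width, lay at 0.8, 0.94 and 0.52 FPKM in WT sham, 17.9, 14.4 and 16.4 in WT UIR, 0.84, 0.7 and 0.81 in PTCKO sham and 11.6, 12.3 and 10.3 in PTCKO UIR. It rose by 3.72 in WT and 3.34 in PTCKO on the log2 scale (edgeR adjusted p = 2.02e-10 and 6.51e-10). Its partner chains rose less: Col5a2 by 1.97 and 2.28 and Col5a3 by 1.97 and 1.80; one PTCKO sham library held 0.46 FPKM of Col5a2 and the other sham libraries 2.08 or more. Col11a2, a type XI chain of cartilage, rose by 2.02 in WT and 0.86 in PTCKO from a mean of 0.13 FPKM in WT sham; the second call was lost without PTCKO sham 3 or PTCKO UIR 2 (highest adjusted p = 0.0589). Col24a1, a fibrillar chain of developing bone and cornea, rose by 1.41 in WT (adjusted p = 0.0033) and had a log2 difference of 0.29 in PTCKO (95% interval -0.54 to 1.11, adjusted p = 0.513), which was -0.37 without PTCKO UIR 2.

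Col27a1 was the fibrillar gene that fell. It lay at 19.3, 19.1 and 17.2 FPKM in WT sham and 6.98, 6.58 and 5.24 in WT UIR, and at 15.0, 13.2 and 13.2 in PTCKO sham and 7.03, 9.1 and 8.21 in PTCKO UIR. All UIR libraries lay below all sham libraries of both genotypes. The gene was 4.82-fold lower in WT UIR than in WT sham (log2 -2.27 ± 0.11, edgeR adjusted p = 6.94e-10) and 2.44-fold lower in PTCKO (log2 -1.29 ± 0.11, adjusted p = 1.62e-07).

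**Figure D2:**
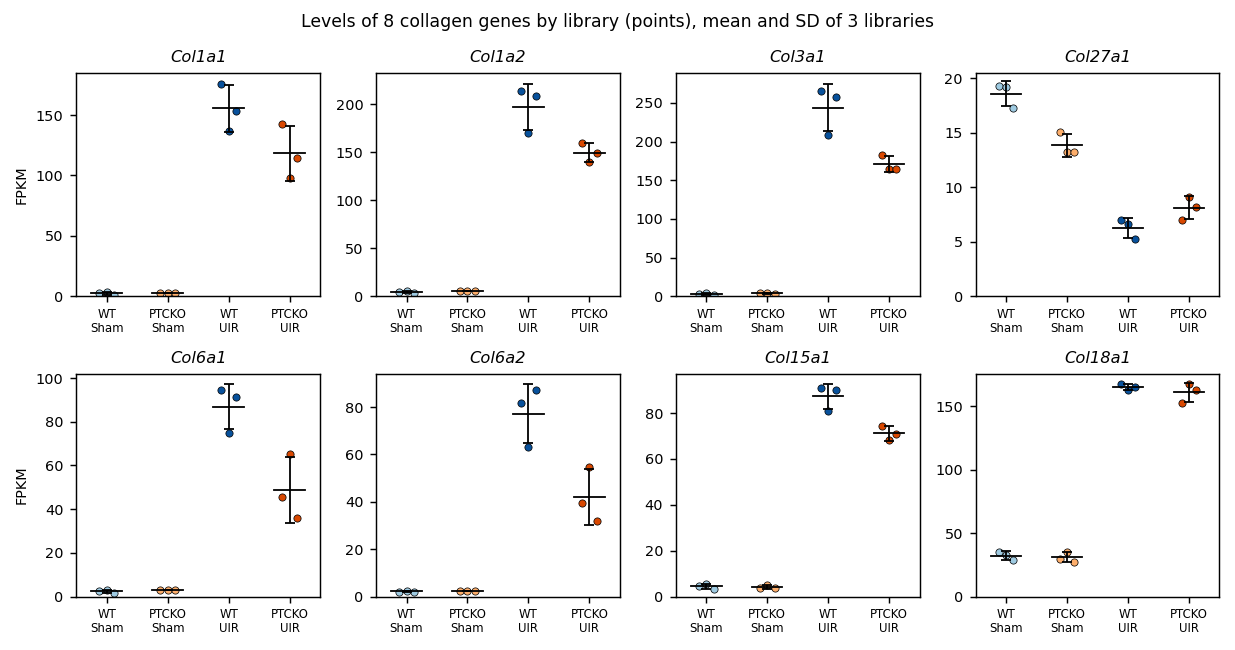
FPKM of 8 collagen genes (Col1a1, Col1a2, Col3a1, Col27a1, Col6a1, Col6a2, Col15a1 and Col18a1) in the 4 groups, with a point per library, a line at the mean and bars of the SD (n = 3). Col3a1 lies between 2.74 (mean of WT sham) and 244 FPKM (mean of WT UIR), while Col27a1 is lower in UIR than in sham libraries in both genotypes.

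Type IV collagen split by chain. Col4a1 and Col4a2, the chains found in nearly all basement membranes, rose, and Col4a3 and Col4a4, which with Col4a5 build the membrane of the glomerular filter and are mutated in Alport syndrome, fell in both genotypes. Col4a1 lay at 30.1, 33.4 and 20.9 FPKM in WT sham, 173, 168 and 179 in WT UIR, 37.1, 37.3 and 31.8 in PTCKO sham and 142, 140.2 and 141 in PTCKO UIR. Col4a2 lay at 22.3, 25.9 and 18.7 FPKM in WT sham, 117, 112 and 119 in WT UIR, 25.9, 26.6 and 24.1 in PTCKO sham and 103, 96.7 and 97.0 in PTCKO UIR. No UIR library overlapped a sham library for either chain. The log2 change of Col4a1 was 1.92 ± 0.14 in WT and 1.48 ± 0.14 in PTCKO, and that of Col4a2 was 1.67 ± 0.11 and 1.44 ± 0.11 (edgeR adjusted p at most 4.27e-07).

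Col4a3 lay at 33.2, 38.3 and 19.6 FPKM in WT sham, 16.3, 18.3 and 13.7 in WT UIR, 32.0, 31.7 and 32.2 in PTCKO sham and 11.8, 13.8 and 12.0 in PTCKO UIR. Col4a4 lay at 28.4, 31.8 and 21.6 FPKM in WT sham, 15.0, 17.3 and 12.7 in WT UIR, 28.1, 27.4 and 29.7 in PTCKO sham and 13.8, 14.8 and 14.6 in PTCKO UIR. Every UIR library was below every sham library for both chains, the nearest being WT sham 3, at 19.6 FPKM of Col4a3, and WT UIR 2, at 18.3. Col4a3 changed by -1.62 ± 0.18 in WT and -1.87 ± 0.18 in PTCKO on the log2 scale (edgeR adjusted p = 1.74e-06 and 6.04e-07). Col4a4 changed by -1.53 ± 0.12 and -1.42 ± 0.12 (adjusted p = 7.5e-08 and 2.23e-07). The summed FPKM of Col4a3, Col4a4 and Col4a5 was 1.20 ± 0.0825 times that of Col4a1 and Col4a2 in WT sham and 0.137 ± 0.0229 times in WT UIR, and 1.07 ± 0.0976 and 0.138 ± 0.0122 times in PTCKO.

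Podocytes are the cells known to make the Col4a3, Col4a4 and Col4a5 network of the glomerular filter. Among all tested genes 42.1% rose after UIR in WT and 39.0% in PTCKO. All 6 tested podocyte marker genes rose in WT UIR (median log2 change 0.90). In PTCKO UIR 3 of 6 podocyte marker genes rose (median 0.68, and 6 of 6 without scaling factors). Their summed FPKM lay between 57.8 and 83.1 in WT sham, 178 and 199 in WT UIR, 70.9 and 83.2 in PTCKO sham, and 131 and 163 in PTCKO UIR, so the summed marker level was higher in the UIR libraries, in which Col4a3 and Col4a4 were lower. Which cells held these transcripts was not measured, and no markers of tubule segments beyond the proximal tubule were counted.

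Col4a5 lay at 3.71, 3.94 and 2.54 FPKM in WT sham, 8.78, 8.82 and 7.23 in WT UIR, 4.24, 4.93 and 4 in PTCKO sham and 5.7, 7.24 and 5.6 in PTCKO UIR. It rose in WT (0.57 ± 0.14, edgeR adjusted p = 0.00215). In PTCKO its log2 difference of -0.039 (95% interval -0.34 to 0.27, adjusted p = 0.811) turned to 0.48 without scaling factors and was then called (adjusted p = 0.0142), as it was with limma on FPKM. Col4a6, which lies next to Col4a5 on chromosome X and whose chain is found in Bowman's capsule, rose by 2.50 in WT and 2.24 in PTCKO from means of 0.18 and 0.19 FPKM in sham.

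**Figure D3:**
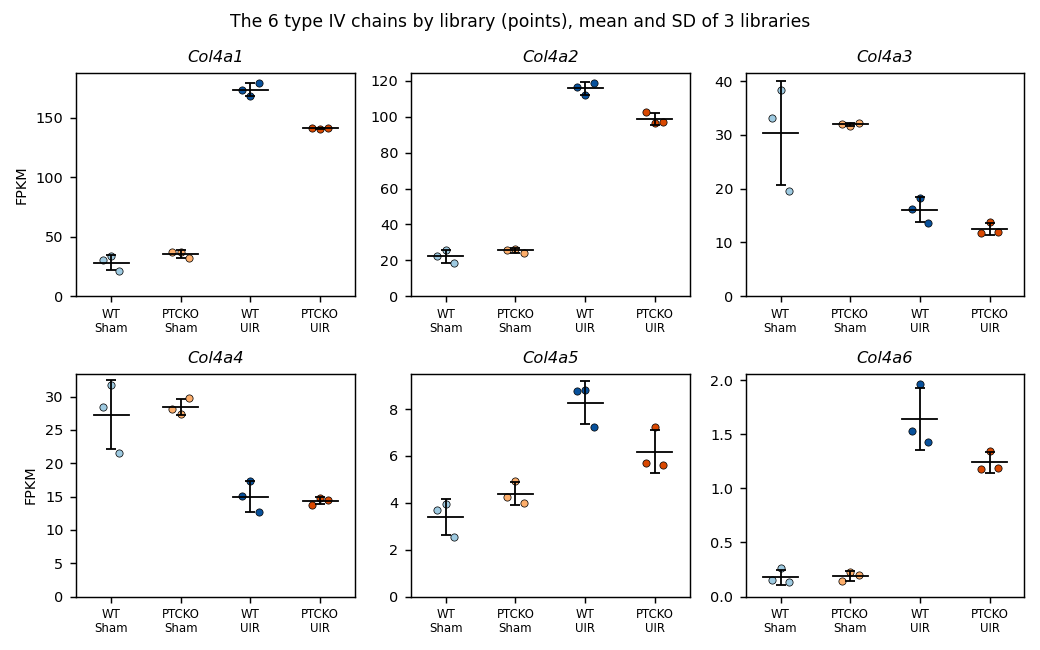
FPKM of the 6 type IV collagen genes in each library, with a point per library, a line at the group mean and bars of the SD (n = 3). Col4a1 and Col4a2 are higher, and Col4a3 and Col4a4 lower, in all UIR libraries than in all sham libraries.

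The beaded filament collagen, type VI, rose in its 3 main chains. Col6a1 lay at 2.48, 3.06 and 1.76 FPKM in WT sham, 94.4, 75.0 and 91.3 in WT UIR, 3.21, 3.02 and 2.86 in PTCKO sham and 45.6, 65.4 and 35.8 in PTCKO UIR. Col6a2 lay at 2.11, 2.54 and 1.91 FPKM in WT sham, 81.5, 63.1 and 87.0 in WT UIR, 2.17, 2.33 and 2.19 in PTCKO sham and 39.5, 54.7 and 31.8 in PTCKO UIR. Col6a3, whose long chain joins these to make the microfibril unit, lay at 1.07, 1.18 and 0.83 FPKM in WT sham, 18.9, 14.7 and 15.1 in WT UIR, 1.4, 0.99 and 1.32 in PTCKO sham and 9.41, 14.3 and 8.62 in PTCKO UIR. For these chains every UIR library was above every sham library, and within UIR every PTCKO library was below every WT library. The log2 changes in WT and PTCKO were 4.45 ± 0.22 and 3.49 ± 0.21 for Col6a1, 4.43 ± 0.19 and 3.70 ± 0.19 for Col6a2, and 3.28 ± 0.19 and 2.57 ± 0.19 for Col6a3 (edgeR adjusted p at most 4.46e-08). The FPKM of Col6a1 was 2.34 ± 0.237 times that of Col6a3 in WT sham, 5.38 ± 0.581 times in WT UIR, 2.50 ± 0.478 times in PTCKO sham and 4.53 ± 0.350 times in PTCKO UIR, so the chains rose unequally.

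The chains that can stand in for Col6a3 differed among themselves. Col6a5 lay at 0.03, 0.07 and 0.02 FPKM in WT sham, 2.18, 1.1 and 1.86 in WT UIR, 0.02, 0 and 0.03 in PTCKO sham and 0.5, 1.03 and 0.29 in PTCKO UIR. It rose by 4.73 ± 0.57 and 4.49 ± 0.70 on the log2 scale from levels near 0 (edgeR adjusted p = 4.02e-06 and 6.03e-05); in PTCKO it was 3.88 without PTCKO UIR 2 and 5.28 without PTCKO sham 3. Col6a6 fell, by 3.58-fold in WT and 5.28-fold in PTCKO, from means of 0.753 and 0.953 FPKM. Col6a4 stayed at or below 0.28 FPKM in every library, with log2 differences of 1.75 in WT (adjusted p = 0.00122) and 0.45 in PTCKO (adjusted p = 0.255, and 0.0482 without PTCKO sham 2). Without scaling factors the value in PTCKO was 0.96 and was called (adjusted p = 0.0221).

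Among the FACIT collagens, which sit on the surface of fibrils, 6 of 7 tested genes rose and 1 fell in WT, and 5 rose and 1 fell in PTCKO. Col14a1, which binds type I fibrils and regulates their growth, lay at 4.05, 4.56 and 2.68 FPKM in WT sham, 38.2, 30.5 and 36.6 in WT UIR, 3.85, 3.38 and 4.59 in PTCKO sham and 17.9, 27.4 and 16.1 in PTCKO UIR. It rose by 2.51 ± 0.20 in WT and 1.86 ± 0.20 in PTCKO (log2; edgeR adjusted p = 7.47e-08 and 1.85e-06). Col16a1, a minor fibril-associated chain, lay at 2.54, 2.55 and 1.92 FPKM in WT sham, 15.3, 13.5 and 15.1 in WT UIR, 2.9, 3.48 and 3.36 in PTCKO sham and 13.9, 12.8 and 12.9 in PTCKO UIR. It rose by 1.94 and 1.51, with no overlap between sham and UIR. Col12a1, found on fibrils of tissue under load, lay at 0.37, 0.41 and 0.23 FPKM in WT sham, 6.97, 6.42 and 6.6 in WT UIR, 0.35, 0.41 and 0.38 in PTCKO sham and 9.04, 4.58 and 9.38 in PTCKO UIR. It rose by 3.53 and 3.78, with PTCKO UIR 2 the lowest of the 6 UIR libraries and the other PTCKO UIR libraries the highest.

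Less abundant FACIT genes went both ways. Col20a1 lay at 0.57, 0.52 and 0.48 FPKM in WT sham, 2.85, 2.5 and 2.11 in WT UIR, 0.91, 0.63 and 0.54 in PTCKO sham and 1.45, 2.3 and 1.55 in PTCKO UIR, and rose by 1.43 and 0.70. Col9a3, a cartilage chain, rose by 2.72 and 1.63 without its partner chains Col9a1 and Col9a2 passing the filter. Col22a1, known from junctions of muscle with tendon, lay at 0.04, 0.04 and 0.05 FPKM in WT sham, 0.17, 0.16 and 0.11 in WT UIR, 0.11, 0.1 and 0.07 in PTCKO sham and 0.05, 0.08 and 0.08 in PTCKO UIR. It rose in WT (1.33 ± 0.36, edgeR adjusted p = 0.00452) and had a log2 difference of -0.75 ± 0.35 in PTCKO (adjusted p = 0.0697, and 0.0491 without PTCKO sham 3). Col19a1, a chain of basement membrane zones, fell from 0.75 ± 0.185 to 0.0267 ± 0.0153 FPKM in WT and from 0.797 ± 0.205 to 0.0133 ± 0.0115 in PTCKO. Its log2 changes of -5.30 and -5.97 rest on UIR levels close to 0, and the second was -6.57 without PTCKO UIR 2.

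The multiplexins, which bridge basement membranes and the matrix around them, rose together. Col18a1 lay at 35.5, 32.9 and 28.7 FPKM in WT sham, 167, 162 and 165 in WT UIR, 29.8, 35.2 and 27.6 in PTCKO sham and 153, 168 and 163 in PTCKO UIR. Col15a1 lay at 4.61, 5.47 and 3.17 FPKM in WT sham, 90.9, 80.9 and 90.0 in WT UIR, 3.75, 4.93 and 3.53 in PTCKO sham and 74.5, 68.0 and 71.0 in PTCKO UIR. Sham and UIR did not overlap for either gene. The log2 change of Col15a1 was 3.60 ± 0.17 in WT and 3.62 ± 0.17 in PTCKO, and that of Col18a1 was 1.65 ± 0.11 and 1.87 ± 0.11 (edgeR adjusted p at most 7.84e-09).

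The 3 hexagonal network genes rose in both genotypes. Col8a1, a short chain made by vessel wall cells and found in the cornea, lay at 0.86, 0.82 and 1.19 FPKM in WT sham, 10.3, 8.68 and 9.96 in WT UIR, 0.96, 1.11 and 0.91 in PTCKO sham and 6.48, 6.22 and 6.46 in PTCKO UIR. Its partner Col8a2 lay at 0.08, 0.09 and 0.01 FPKM in WT sham, 2.02, 1.4 and 1.98 in WT UIR, 0.03, 0.03 and 0.01 in PTCKO sham and 1.21, 1.29 and 1.01 in PTCKO UIR. UIR libraries lay above sham libraries throughout, by log2 changes of 2.62 and 2.17 for Col8a1 and 4.17 and 4.99 for Col8a2 (edgeR adjusted p at most 1.43e-07). Col10a1, the collagen of hypertrophic cartilage, lay at 0, 0.02 and 0 FPKM in WT sham, 0.61, 0.56 and 0.27 in WT UIR, 0.02, 0.02 and 0.04 in PTCKO sham and 0.21, 0.28 and 0.12 in PTCKO UIR. It was called higher after UIR in WT and PTCKO (adjusted p = 2.72e-05 and 0.00659), with a log2 change of 2.31 in PTCKO; no fold is given in WT because sham held 1 count in all.

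The transmembrane, anchoring and remaining collagens were low. Col17a1, a chain of hemidesmosomes that fix epithelia to their basement membrane, lay at 0.01, 0 and 0.02 FPKM in WT sham, 0.33, 0.38 and 0.35 in WT UIR, 0, 0 and 0 in PTCKO sham and 0.83, 0.53 and 0.84 in PTCKO UIR. It was called higher after UIR in both genotypes (edgeR adjusted p = 2.9e-05 in WT and 8.21e-07 in PTCKO). In PTCKO it was at least 44.2-fold higher, taking 3 counts over the group as the floor for sham libraries that held 0. Col23a1 lay at 0.1, 0.21 and 0.19 FPKM in WT sham, 1.46, 1.31 and 1.04 in WT UIR, 0.47, 0.85 and 0.42 in PTCKO sham and 0.91, 1.25 and 0.88 in PTCKO UIR. This transmembrane chain rose in WT (2.24 ± 0.33, adjusted p = 2.98e-05) and had a log2 difference of 0.35 in PTCKO (95% interval -0.26 to 0.97, adjusted p = 0.276, and 0.0169 without PTCKO sham 2). Without scaling factors that difference was 0.87 and was called (adjusted p = 0.0161), as it was with limma at both pseudocounts (adjusted p = 0.015 and 0.0225). Col13a1, known from the neuromuscular junction, lay at 0.47, 0.69 and 0.59 FPKM in WT sham, 1.94, 1.66 and 1.58 in WT UIR, 0.76, 0.5 and 0.7 in PTCKO sham and 1.25, 1.66 and 1.06 in PTCKO UIR. It rose by 0.87 in WT and 0.54 in PTCKO (adjusted p = 0.00266 and 0.0429); the second call was lost without any 1 of 7 libraries (WT UIR 1, 2 or 3, PTCKO sham 2 or 3, PTCKO UIR 1 or 2), with an adjusted p of up to 0.171, and also with DESeq2 (adjusted p = 0.0669) and with a replicate block (0.0639).

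Col7a1, the anchoring fibril collagen of skin, was the 1 tested member called in neither genotype with TMM scaling. It lay at 0.35, 0.36 and 0.42 FPKM in WT sham, 0.81, 0.82 and 0.69 in WT UIR, 0.54, 0.55 and 0.44 in PTCKO sham and 0.88, 0.78 and 1.12 in PTCKO UIR. In FPKM, which carries no TMM scaling, Col7a1 was higher in every UIR library than in every sham library. Its log2 differences of 0.32 and 0.36 had 95% intervals of -0.08 to 0.71 in WT and -0.027 to 0.74 in PTCKO (edgeR adjusted p = 0.129 and 0.0857), and without PTCKO UIR 2 it was called in PTCKO (adjusted p = 0.0235). Without scaling factors it was called higher in both, at 1.03 in WT and 0.87 in PTCKO (adjusted p = 8.77e-05 and 0.000367). Col28a1, a chain of peripheral nerve, lay at 0.03, 0.06 and 0 FPKM in WT sham, 0.53, 0.41 and 0.25 in WT UIR, 0.01, 0.02 and 0.04 in PTCKO sham and 0.3, 0.39 and 0.35 in PTCKO UIR, and rose by 3.15 and 3.33. Sham libraries held 2, 4 and 0 counts of it in WT and 1, 1 and 3 in PTCKO, and the log2 change was 4.09 in WT without WT sham 2 and 4.01 in PTCKO without PTCKO sham 3. Of 4 tested Schwann cell markers 3 rose in each genotype, beside 42.1% of all tested genes in WT and 39.0% in PTCKO. The summed FPKM of these markers lay between 1.38 and 1.57 in WT sham and between 3.67 and 4.34 in WT UIR. In PTCKO it lay between 1.58 and 1.98 after sham and between 3.18 and 4.04 after UIR. Their part in the rise of Col28a1 was not tested. Col26a1, a chain known from testis and ovary, lay at 1.44, 1.5 and 1.16 FPKM in WT sham, 1.53, 1.76 and 1.98 in WT UIR, 1.26, 1.06 and 1.06 in PTCKO sham and 1.32, 1.63 and 1.72 in PTCKO UIR. Its FPKM was higher in UIR while the scaled log2 difference was -0.44 in WT (edgeR adjusted p = 0.0264) and -0.073 in PTCKO (adjusted p = 0.713). Without scaling factors both turned positive, to 0.26 and 0.44, and the value in PTCKO was called, so its direction depends on the scaling. The call in WT was also lost without WT sham 1 or 2 or WT UIR 1 or 2 (highest adjusted p = 0.0854).

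**Figure D4:**
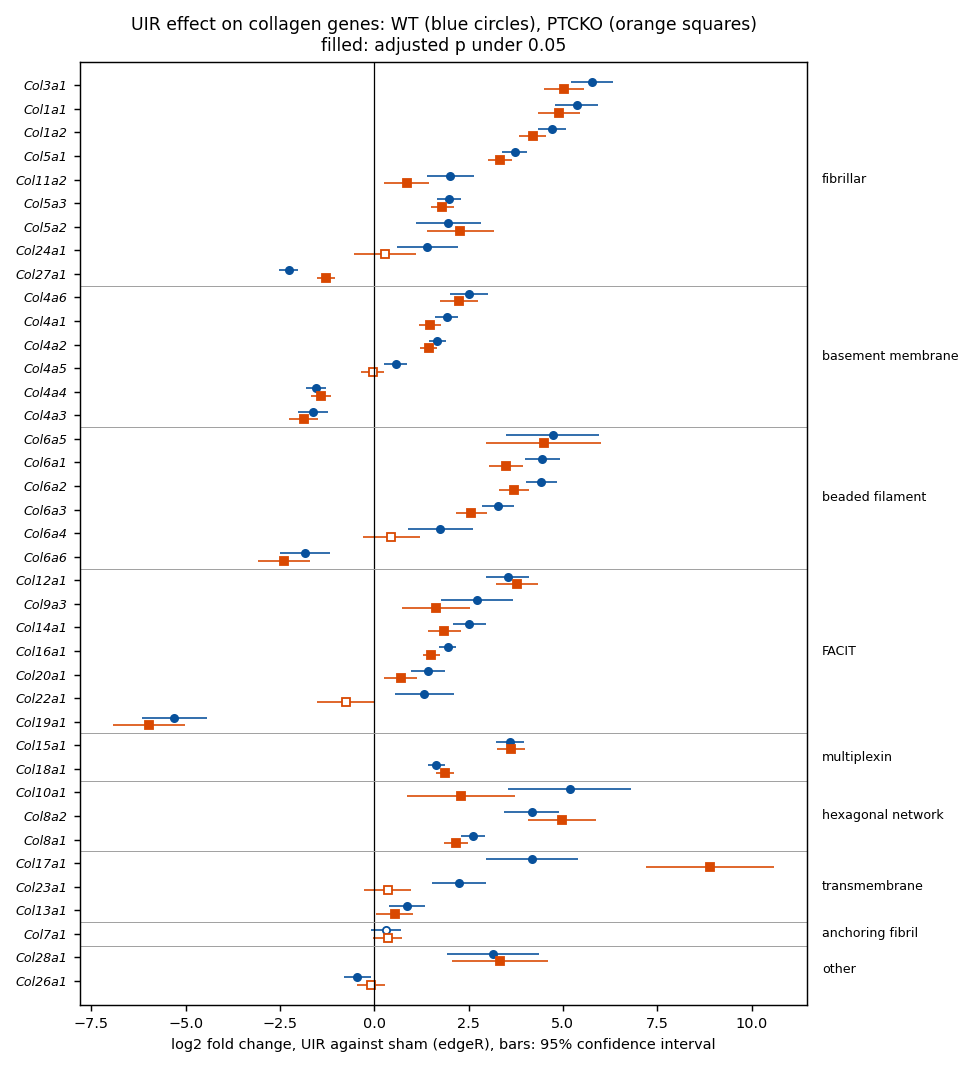
Log2 fold change of UIR against sham for the 39 tested collagen genes in WT (circles) and PTCKO (squares), by class, with bars of the 95% interval and filled points at an adjusted p below 0.05. Most members lie above 0 in both genotypes, Col27a1, Col4a3, Col4a4, Col6a6 and Col19a1 lie below 0 in both, Col4a5 in PTCKO and Col26a1 in both change sign without scaling factors, and the fitted values of Col10a1 and Col17a1 depend on sham libraries with 0 counts.

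Of 18 tested genes for propeptide removal and cross-linking, 15 rose and 2 fell in WT and 13 rose and 2 fell in PTCKO, with median log2 changes of 1.97 and 1.29. These counts and those of the other processing lists stand beside 42.1% higher and 36.4% lower among all tested genes in WT, and 39.0% and 34.8% in PTCKO. Lox, the lysyl oxidase that starts cross-links, went from 0.403 ± 0.146 to 24.6 ± 2.74 FPKM in WT and rose by 5.18 in WT and 4.68 in PTCKO (log2; edgeR adjusted p = 1.58e-10 and 3.58e-10). Bmp1, which cuts off C-propeptides, rose by 3.28 and 3.14, Adamts2, which cuts off N-propeptides, by 4.03 and 3.36, and Sparc, a collagen-binding protein, by 3.41 and 2.94. The members that fell were Mep1a and Mep1b, the meprin chains, which are proteases of the proximal tubule brush border.

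Of 20 tested genes for hydroxylation and folding of chains in the endoplasmic reticulum, 11 rose and 6 fell in WT and 10 rose and 6 fell in PTCKO; without scaling factors the counts were 15 and 2, and 14 and 4. The list's median was 0.37 in WT and 0.30 in PTCKO, against 0.10 and 0.059 over all genes. Fkbp10, a folding enzyme of procollagen, had the smallest p in both and rose by 3.45 ± 0.14 in WT and 3.63 ± 0.14 in PTCKO (edgeR adjusted p = 1.89e-10 and 2.95e-10). P3h3 and P3h4, of the prolyl 3-hydroxylase family, rose by 2.44 and 2.13 in WT and by 1.83 and 2.20 in PTCKO. Serpinh1, the collagen chaperone HSP47, went from 31.2 ± 3.9 to 225 ± 32.2 FPKM in WT (2.13), and Colgalt1, which adds galactose to hydroxylysine, rose by 1.47 in PTCKO. The 6 that fell in WT with scaling were P4ha1, P4ha2, P4hb, P3h2, Mia3 and Tmem38b, of which the first 3 belong to prolyl 4-hydroxylase. In mean FPKM, P4ha1, P4ha2 and Mia3 were higher in WT UIR than in WT sham (20.3 against 16.2, 12.1 against 9.86 and 15.4 against 14.0). P4hb and P3h2 were lower in FPKM as well (192 against 258 and 25.1 against 30.6).

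Of 10 tested collagen receptors, 9 rose in WT and 8 in PTCKO, with none lower and medians of 2.05 and 1.97. Mrc2, an uptake receptor for collagen, rose by 3.24 in WT and 3.05 in PTCKO, the receptor kinase Ddr2 by 3.68 and 3.16, the leukocyte receptor Lair1 by 4.22 and 3.73, and the integrin chain Itga2 by 3.92 and 3.75. Of 13 genes that degrade collagen, 9 rose and 2 fell in WT and 8 rose and 1 fell in PTCKO, with medians of 3.27 and 1.76. Among them, the membrane collagenase Mmp14 rose by 4.51 and 4.49 and the cathepsins Ctsk and Ctss by 4.90 and 4.42 and by 5.58 and 5.18. Pepd, which splits proline dipeptides from collagen breakdown, fell by 6.24-fold in WT and 3.77-fold in PTCKO; without scaling factors 12 of the 13 were higher and 1 lower in WT, and 11 and 1 in PTCKO.

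Cell type markers also changed from sham to UIR. Their counts stand beside 42.1% higher and 36.4% lower among all tested genes in WT, and 39.0% and 34.8% in PTCKO. All 6 tested fibroblast and pericyte markers rose in both genotypes, with medians of 3.67 in WT and 2.70 in PTCKO, and their summed level lay between 17.1 and 28.7 FPKM in WT sham, 316 and 485 in WT UIR, 29.3 and 35.2 in PTCKO sham, and 263 and 359 in PTCKO UIR. Of 6 smooth muscle and myofibroblast markers 6 rose in WT and 5 in PTCKO (medians 2.72 and 2.24), from sums of 43.3 to 53.6 FPKM in WT sham to 468 to 567 in WT UIR and of 43.3 to 51.3 in PTCKO sham to 288 to 348 in PTCKO UIR. All 5 macrophage markers rose in both (medians 4.75 and 4.79), with sums in WT of 54.7 to 67.1 FPKM after sham and 2027 to 2936 after UIR, and in PTCKO of 52.2 to 66.1 and 1658 to 2141. Of 7 endothelial markers 6 rose and 1 fell in WT and 2 rose and 1 fell in PTCKO (6 and 1 without scaling factors), with sums of 172 to 193 FPKM in WT sham and 176 to 187 in PTCKO sham, and all 7 proximal tubule markers fell in both (medians -4.55 and -2.94), from sums of 5926 to 6067 FPKM in WT sham and 4353 to 5542 in PTCKO sham. The part of these cell types in the change of each collagen gene was not tested. Cartilage markers summed to 0.49 FPKM or less in every library, with Acan at 0 in 11 of 12. Urothelial markers summed to 5.52 FPKM or less, and adipocyte markers to 0.23 or less outside WT sham 2. Only 1 of the 4 cartilage markers passed the filter on low counts, and their bearing on Col10a1, Col11a2 and Col9a3 was not tested.

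Within a group, the same library often held the highest or the lowest values. Over the 28 members with a mean of at least 1 FPKM in some group, WT sham 2 held the highest WT sham value for 23 and WT sham 3 the lowest for 24. WT sham 2 was also the library with an adipocyte marker sum of 6.17 FPKM, with Adipoq at 4.02. Among WT UIR libraries WT UIR 1 was highest for 20, and among PTCKO UIR libraries PTCKO UIR 2 was highest for 17. For Col6a1, Col6a2, Col6a3, Col6a5 and Col14a1, PTCKO UIR 2 lay nearest to the WT UIR libraries, while for Col1a1 and Col12a1 it was the lowest of its group.

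The comparison of PTCKO with WT after UIR asks whether the collagen transcripts of the injured kidney differed by genotype. Of the 39 tested members, 8 were lower and 2 higher in PTCKO UIR, beside 4.50% lower and 9.30% higher among all tested genes (13.8% in either direction). The lower ones were Col6a1, Col6a2, Col6a3, Col6a5, Col14a1, Col22a1, Col5a1 and Col8a1, and the higher ones Col27a1 and Col17a1. The median difference of the tested members was -0.32 on the log2 scale against about 0 over all genes, and 32 of 39 members lay below 0 against 49.2% of all genes. Without scaling factors 56.1% of all calls were upward, against 67.4% with them, and the members' median was -0.40. The type I, III and IV chains were not among the calls.

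Type VI collagen carried 4 of the 8 lower calls. From the levels given above, Col6a2 differed by -0.82 ± 0.16 (edgeR adjusted p = 0.00485), which is 1.76-fold lower in PTCKO UIR. Col6a1 differed by -0.77 ± 0.18 (adjusted p = 0.014), Col6a3 by -0.54 ± 0.17 (adjusted p = 0.0484) and Col6a5 by -1.44 ± 0.39 (adjusted p = 0.0271). In all 4 every PTCKO UIR library was below every WT UIR library. Type VI genes made up 12.3% ± 0.741 of collagen FPKM in WT UIR and 8.98% ± 2.55 in PTCKO UIR. These shares overlapped, with PTCKO UIR 2 at 11.9% and WT UIR 2 at 11.4%.

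The other lower calls came from chains that attach to fibrils, start them or line vessels. Col14a1 differed by -0.72 ± 0.19 (edgeR adjusted p = 0.024), Col5a1 by -0.44 ± 0.12 (adjusted p = 0.0306) and Col8a1 by -0.53 ± 0.12 (adjusted p = 0.0129), each with no overlap between the libraries. Col22a1, with at most 0.17 FPKM in any library, differed by -1.05 ± 0.32 (adjusted p = 0.0438). Upward, Col27a1 differed by 0.44 ± 0.11 (adjusted p = 0.0188) and the low Col17a1 by 1.13 ± 0.29 (adjusted p = 0.027). The 3 PTCKO UIR libraries of Col27a1 began at 7.03 FPKM, just above the highest WT UIR library at 6.98.

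For the most abundant chains the difference did not pass the test, with intervals that reach from a reduction to near 0 or above. The difference was -0.45 (95% interval -0.89 to -0.00096, edgeR adjusted p = 0.176) for Col3a1, -0.32 (-0.78 to 0.14, adjusted p = 0.342) for Col1a1 and -0.33 (-0.65 to -0.02, adjusted p = 0.15) for Col1a2. For Col3a1 and Col1a2 every PTCKO UIR library was below every WT UIR library, while for Col1a1 PTCKO UIR 1, at 142 FPKM, lay above WT UIR 2, at 137. Col3a1 was called without WT sham 2 (adjusted p = 0.045).

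In type IV collagen the differences were -0.23 for Col4a1 (95% interval -0.52 to 0.058), -0.16 for Col4a2 (-0.38 to 0.061), -0.29 for Col4a3 (-0.67 to 0.088), 0.0019 for Col4a4 (-0.26 to 0.27), -0.35 for Col4a5 (-0.65 to -0.055) and -0.31 for Col4a6 (-0.72 to 0.09), none of which was called (edgeR adjusted p at least 0.11). Libraries did not overlap for Col4a1, Col4a2 and Col4a6. The multiplexins differed by 0.033 for Col18a1 (95% interval -0.19 to 0.26) and -0.23 for Col15a1 (-0.55 to 0.10), and Col12a1 by 0.29 (-0.16 to 0.74). The remaining tested members, among them Col24a1 (-1.0, adjusted p = 0.066), Col10a1 (-1.18, adjusted p = 0.0642) and Col11a2 (-0.66, adjusted p = 0.0868), were not called.

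**Figure D5:**
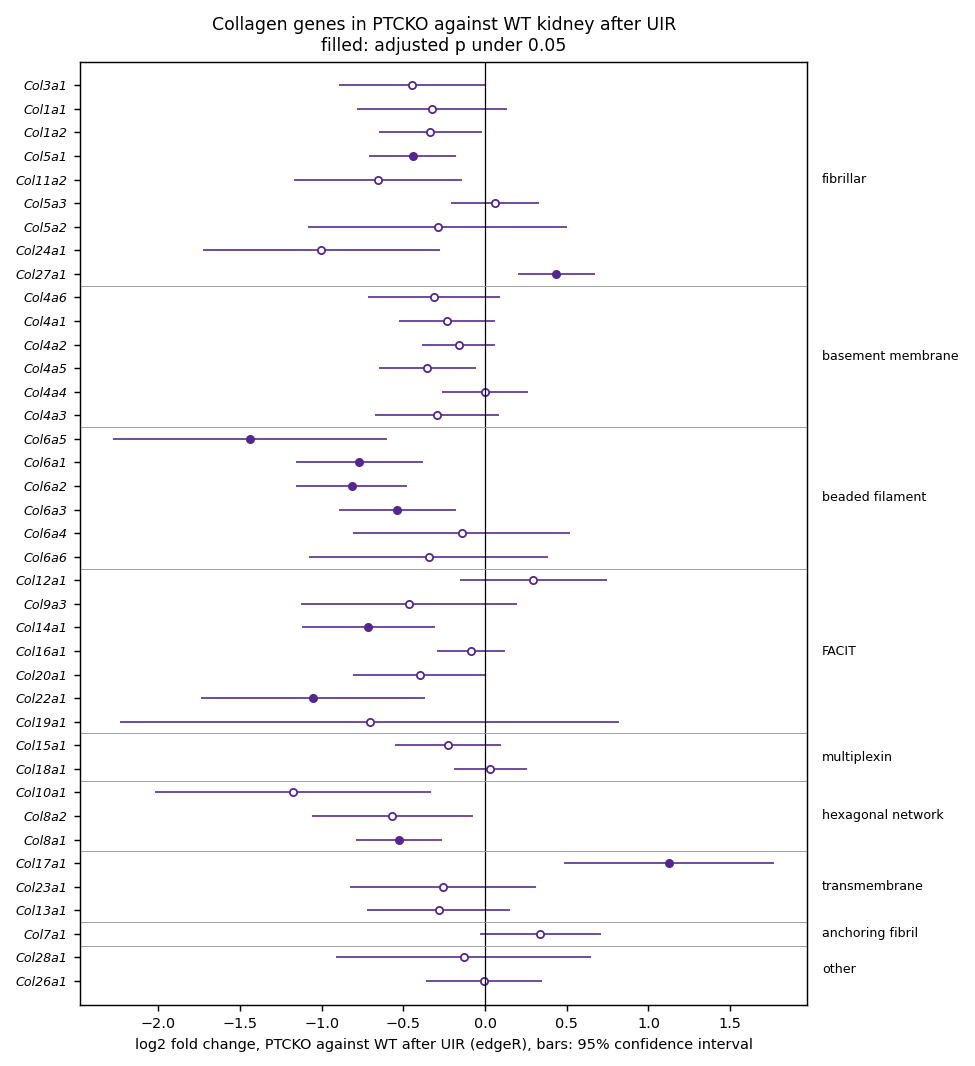
Log2 difference of PTCKO against WT after UIR for the 39 tested collagen genes, by class, with bars of the 95% interval and filled points at an adjusted p below 0.05. In all, 32 of 39 members lie below 0, with Col6a1, Col6a2, Col6a3, Col6a5, Col14a1, Col22a1, Col5a1 and Col8a1 called lower and Col27a1 and Col17a1 called higher.

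These counts rest on few libraries. Only Col6a2 was called in all 19 settings tried, with a highest adjusted p of 0.0244. The number of lower calls was 1 without WT UIR 1 or PTCKO UIR 1, 2 without WT UIR 3 or PTCKO UIR 3, and 11 without PTCKO UIR 2. Col5a1, Col6a1, Col6a5 and Col14a1 lost their call without any 1 of WT UIR 1, WT UIR 3, PTCKO UIR 1 and PTCKO UIR 3, with an edgeR adjusted p of up to 0.144, 0.0651, 0.123 and 0.12, and Col8a1 without the first 3 of these (up to 0.0786). Col6a3 lost it without any 1 of 8 libraries (these 4, WT sham 1 or 2, and PTCKO sham 1 or 3; up to 0.217) and Col22a1 without any 1 library but PTCKO sham 1 (up to 0.171). Col22a1 also lost it with DESeq2 (adjusted p = 0.11), without the filter on low counts (edgeR, 0.0696) and with a replicate block (0.0725), Col6a3 with a replicate block (0.0548) and with limma at a pseudocount of 0.1 (0.0649), Col5a1 with the same limma fit (0.078), and Col27a1 without scaling factors (0.0528) and with limma at both pseudocounts (0.0583 and 0.0664). The number of higher calls was 0 without WT UIR 3 or PTCKO UIR 3, 1 without WT UIR 1, WT UIR 2 or PTCKO UIR 1, and 3 without PTCKO UIR 2: Col27a1 lost its call without WT UIR 3 or PTCKO UIR 3 (up to 0.0768) and Col17a1 without any UIR library but PTCKO UIR 2 (up to 0.129). Members that gained a call with 1 library left out were Col12a1 (0.58) and Col24a1 (-1.64) without PTCKO UIR 2 and Col3a1 without WT sham 2. Col10a1 gained it without PTCKO UIR 2 or WT UIR 3, and Col11a2 without PTCKO UIR 2 or WT UIR 2. Col4a5 gained it without PTCKO UIR 2 or WT sham 3 (edgeR adjusted p = 0.0481 and 0.0441). In addition, Col4a5 and Col8a2 were each called in 1 setting that kept all libraries.

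Cell type markers also differed between genotypes after UIR. Their counts stand beside 4.50% lower and 9.30% higher among all tested genes. After UIR all 7 tested endothelial markers (median -0.48) and 4 of 6 smooth muscle and myofibroblast markers (median -0.66) were lower in PTCKO, as were 1 of 6 fibroblast and pericyte markers, 1 of 5 macrophage markers (2 without scaling factors) and 2 of 6 podocyte markers, while all 7 proximal tubule markers were higher (median 1.40). The smooth muscle sum lay between 468 and 567 FPKM for WT after UIR and between 288 and 348 for PTCKO, the endothelial sum between 406 and 423 and between 293 and 317, and the proximal tubule sum between 246 and 562 and between 816 and 1386. The differences over all genes also varied with transcript length. Of the 37 members with a length, 30 lay in the longest of 5 length classes. The median of that class was -0.081 over all genes, with 6.34% called lower, against -0.30 for its collagen members. The part of these cell types and of length in the collagen differences was not tested.

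The counts of processing genes called between genotypes after UIR stand beside 4.50% lower and 9.30% higher among all tested genes. In the hydroxylation and folding list 1 of 20 was lower, Plod2, the lysyl hydroxylase of collagen end pieces (-0.47 ± 0.086, edgeR adjusted p = 0.0035). In the propeptide and cross-linking list 3 of 18 were lower and 1 higher: Adamts2 (-0.57, adjusted p = 0.0132), Pcolce2, an enhancer of procollagen cleavage (-1.01, adjusted p = 0.0407), and the cross-linking enzyme Loxl1 (-0.52, adjusted p = 0.0487), against Mep1a (1.07, adjusted p = 0.00293). Among 10 receptors the integrin chain Itga10 was lower (-0.73, adjusted p = 0.0265). Of 13 degradation genes 4 were lower, Ctsk (-0.71), Ctsb (-0.60), Ctss (-0.63) and the collagenase Mmp13 (-1.29), and Pepd was higher (0.59, adjusted p = 0.00504).

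After sham surgery, 1 tested collagen gene was higher and 1 lower in PTCKO, beside 5.23% higher and 5.50% lower among all tested genes. Col27a1 was lower, with a difference of -0.55 ± 0.11 (edgeR adjusted p = 0.0125), with all PTCKO sham libraries, at 15.0 FPKM or less, below all WT sham libraries, at 17.2 or more. Col23a1 was higher by 1.63 ± 0.35 (adjusted p = 0.0182), again without overlap, at 0.47, 0.85 and 0.42 FPKM against 0.1, 0.21 and 0.19. The median difference of the tested members was 0.07 against about 0 over all genes (0.20 against 0.12 without scaling factors, and -0.048 with the trend on transcript length removed), with 22 above 0 and 17 below, and 4 higher and 3 lower at an unadjusted p below 0.05. The longest length class had a sham median of 0.17 over all genes and 0.057 over its collagen members.

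The call of Col27a1 after sham held in all 19 settings tried, and that of Col23a1 was lost without WT sham 1 (1.35, edgeR adjusted p = 0.0537) or PTCKO sham 2 (1.20, adjusted p = 0.0556), which left 0 higher calls. The number of higher calls was 2 without WT sham 2, without PTCKO UIR 2 and without scaling factors, under which 84.4% of all calls were upward, against 48.8% with them. The gene added without PTCKO UIR 2 or without scaling factors was Col16a1. With all libraries and scaling it differed by 0.35 (edgeR adjusted p = 0.0596). For Col1a1, Col1a2 and Col3a1 the sham differences were 0.14 (95% interval -0.38 to 0.65), 0.18 (-0.16 to 0.51) and 0.30 (-0.19 to 0.79), and for Col4a1 and Col4a2 0.21 (-0.084 to 0.50) and 0.07 (-0.15 to 0.29); Col3a1 was called higher without WT sham 2 (adjusted p = 0.0323). Of the processing genes, Loxl4 (0.88, adjusted p = 0.031) and Mep1b (1.09, adjusted p = 0.0407) of the cross-linking list and the collagen receptor chain Itga1 (0.46, adjusted p = 0.0163) were higher, and no hydroxylation or degradation gene was called. Of the markers, Gli1 (fibroblast and pericyte), Tek (endothelium) and 1 of 5 macrophage genes were higher and another macrophage gene and the proximal tubule gene Slc22a8 lower. These calls of processing and marker genes stand beside 5.23% higher and 5.50% lower among all tested genes.

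The interaction test asks whether the change from sham to UIR differed between genotypes, and is a test of that difference itself. It called 1 of the 39 tested members upward and 4 downward, beside 14.4% and 7.08% of all tested genes. The median interaction of the tested members was -0.44 on the log2 scale against about 0 over all genes (-0.63 against -0.20 without scaling factors), and 28 of 39 lay below 0.

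Col27a1 had a positive interaction of 0.98 ± 0.15 (edgeR adjusted p = 0.00253): it fell by 4.82-fold in WT and 2.44-fold in PTCKO, starting from a lower sham level in PTCKO. The genotype difference was thus -0.55 after sham and 0.44 after UIR, with opposite signs. Col23a1 had a negative interaction of -1.89 ± 0.44 (adjusted p = 0.0122), with a sham level higher in PTCKO and UIR levels that overlapped. Col22a1 had -2.08 ± 0.51 (adjusted p = 0.0146), rising in WT UIR and having lower values in PTCKO UIR than in 2 of its 3 sham libraries. These 3 genes were called in every setting in which they were tested.

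Col6a1 had an interaction of -0.96 ± 0.28 (edgeR adjusted p = 0.0302) and Col4a5 of -0.61 ± 0.20 (adjusted p = 0.0448). Col6a1 lost the call without any 1 of 7 libraries (WT sham 1 or 3, WT UIR 1, PTCKO sham 1 or 2, PTCKO UIR 1 or 3; adjusted p up to 0.0759) and Col4a5 without any of these or WT UIR 2 (up to 0.101). The number of downward calls was 2 without PTCKO UIR 1 or 3, PTCKO sham 2, WT sham 1 or WT UIR 1, 7 without WT sham 2 and 10 without PTCKO UIR 2, and the number upward was 2 without WT sham 2 or PTCKO UIR 2. The number of downward calls was 13 without scaling factors, under which 32.1% of all interaction calls were upward against 67.0% with them, and 2 with the trend on transcript length removed, where Col4a5 (-0.41, adjusted p = 0.124) and Col6a1 (-0.84, adjusted p = 0.0512) were not called. The longest length class had a median interaction of -0.25 over all genes, with 17.1% called downward, and of -0.41 over its collagen members.

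For the type I and III chains the interaction was -0.46 for Col1a1 (95% interval -1.15 to 0.23), -0.51 for Col1a2 (-0.97 to -0.054) and -0.75 for Col3a1 (-1.41 to -0.085), with edgeR adjusted p of 0.321, 0.0988 and 0.096. For Col4a1 it was -0.44 (-0.86 to -0.028, adjusted p = 0.113) and for Col6a2 -0.73 (-1.28 to -0.18, adjusted p = 0.0569). For Col16a1 it was -0.43 (edgeR adjusted p = 0.0506) and was called in 6 of 19 other settings. Col1a2 and Col3a1 were called without WT sham 2 (adjusted p = 0.0177 and 0.00676), and Col6a2 without WT UIR 2 or PTCKO UIR 2 (adjusted p = 0.0241 and 0.00671) or with DESeq2 (0.0328). Without scaling factors the interaction was called for Col1a2 (-0.71), Col3a1 (-0.94), Col4a1 (-0.63) and Col6a2 (-0.91), with edgeR adjusted p of at most 0.0472. Among the processing genes the interaction was negative for Plod2 (-0.49) and P3h3 (-0.62) of 20 hydroxylation genes (4 of 20 without scaling factors), for Fmod, fibromodulin (-1.70), Loxl4 (-1.03) and Pcolce2 (-1.85) of 18 cross-linking genes (7 without scaling factors), with the transglutaminase Tgm2 positive (0.42), for none of 10 receptors (3 without scaling factors), and for Mmp13 (-1.69) of 13 degradation genes, with Pepd positive (0.73). Of the markers, 2 fibroblast and pericyte, 2 smooth muscle, 3 endothelial and 1 macrophage gene had a negative and 6 of 7 proximal tubule genes a positive interaction; without scaling factors these were 3 of 6, 5 of 6, 7 of 7, 1 of 5 and 6 of 7, with 1 of 6 podocyte genes negative. With DESeq2 3 of 6 fibroblast and pericyte and 4 of 5 smooth muscle genes were negative. With scaling, the counts of processing and marker genes stand beside 14.4% upward and 7.08% downward among all tested genes. The part of the marker genes in the collagen values was not tested. The genotype and injury comparisons share libraries, so the values of a gene in them are given side by side and are not independent of each other.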

How the data were processed

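Total RNA of mouse kidney was sequenced in 12 libraries, 3 in each of 4 groups. Per the submitters' processing notes, Bowtie2, RSEM and DESeq2 were used with the GRCm38.p6 build; the sources used here give no versions or settings. The deposited table holds, per the file headers, RSEM's expected count with FPKM and TPM for each gene and library, as the authors computed them, and 0 columns lacked a library. The expected counts were rounded and tested with edgeR 4.0.16 in R 4.3.3: TMM scaling, a filter on low counts (filterByExpr with a minimum count of 10), 1 coefficient per group over all 12 libraries and the quasi-likelihood F test with 8 residual degrees of freedom. P-values were adjusted by Benjamini-Hochberg over 15322 genes, and genes were called at 0.05. The standard error is the size of the log2 change divided by the square root of F, and 95% intervals follow from it. Deposited FPKM values give the levels, their SD and the ratios between genes, and deposited TPM values only a check of the class shares.

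Every collagen gene was accounted for. Values in every library were given for up to 4 genes per class with the highest group mean FPKM and for each gene called between genotypes or in the interaction, and up to 4 genes with the smallest p per comparison were named from 4 lists of collagen processing genes. 10 lists of cell type markers were counted. The members and lists were chosen with earlier results of these data known.

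Alternatives were DESeq2 1.42.0, no scaling factors, no filter, limma 3.58.1 on log2(FPKM + 1) and log2(FPKM + 0.1), a term for the library number, each library left out in turn, and removal of a trend on transcript length. Levels compare genes per length, and the depth per library sets the precision of low genes.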

Additional observations from a re-analysis of the deposited data

Results flagged for a closer look

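By the interaction test of edgeR, the log2 change from sham to UIR differed between PTCKO and WT in 5 of 39 tested collagen genes. Among all tested genes 21.5% were called. With 1 library left out, Col6a1 kept its call in 5 of 12 fits and Col4a5 in 4 of 12. Neither was called with the trend on transcript length removed. The difference of changes was 0.98 for Col27a1, the fibrillar chain that fell after UIR (adjusted p = 0.00253; change -2.27 in WT and -1.29 in PTCKO). For the FACIT chain Col22a1 it was -2.08 (adjusted p = 0.0146; 1.33 and -0.75), with no library above 0.17 FPKM. For the transmembrane chain Col23a1 it was -1.89 (adjusted p = 0.0122; 2.24 and 0.35). For Col6a1 of type VI collagen it was -0.96 (adjusted p = 0.0302; 4.45 and 3.49) and for Col4a5 of type IV collagen -0.61 (adjusted p = 0.0448; 0.57 and -0.039, the last of which is positive without scaling factors).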

How the results depend on the processing

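Without scaling factors, Col4a5 and Col26a1 changed sign between UIR and sham: in PTCKO Col4a5 was 0.48 without scaling, 0.41 with limma at a pseudocount of 1 and 0.48 at 0.1, Col26a1 was 0.44, 0.26 and 0.43, and in WT Col26a1 was 0.26, 0.22 and 0.34. Collagen genes lower after UIR numbered 3 in WT and 3 in PTCKO with limma at both pseudocounts. The limma fits tested only 28 members, those with at least 1 FPKM in at least 3 libraries. Col6a6, Col17a1 and Col19a1 were not among them, so every limma count here is out of 28. Between genotypes after UIR, higher members numbered 1 without scaling and 0 with limma at both pseudocounts, and lower members 5 with limma at 0.1. After sham, 2 were higher without scaling and with limma at both pseudocounts. Lower interactions numbered 13 without scaling, 14 and 12 with limma at 1 and 0.1, and 2 with the length trend removed, an alternative chosen after seeing the data, under which all genes called numbered 721 after sham and 2024 for the interaction. Leaving out 1 library gave 11523 to 12216 genes called for UIR in WT, 10675 to 11494 in PTCKO, 904 to 3321 between genotypes after UIR, 430 to 2183 after sham and 1743 to 4565 for the interaction. In the same order, higher collagen genes ranged over 32 to 33, 26 to 29, 0 to 3, 0 to 2 and 1 to 2, and lower ones over 5 to 6, 5 to 6, 1 to 11, 1 to 1 and 2 to 10. Correlations of deviations showed no clear pairing by library number, but 3 libraries a group cannot exclude one. They ran from -0.089 to 0.179 within a number over 18 pairs and from -0.213 to 0.253 otherwise. A replicate block gave 12044, 11302, 1983, 1667 and 3274 genes called in the same order of comparisons. With it 26 collagen genes were higher after UIR in PTCKO and 7 lower in PTCKO than in WT after UIR. The causes of these changes were not tested. Members below about 1 FPKM rest on few reads, which limits their precision.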
